A study of Mus musculus with 17 samples.

Results

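Glutathione S-transferases were followed gene by gene in 4 cytosolic classes, alpha (Gsta1, Gsta2, Gsta3 and Gsta4), mu (Gstm1, Gstm2 and Gstm5), pi (Gstp1) and theta (Gstt1 and Gstt2). Every probe set that the platform annotation pairs with exactly 1 of these 10 symbols was taken, which gave 9 probe sets for 8 genes out of 13069 probe sets on the 2 array types. Gsta1 and Gsta2 had no such probe set. The alpha class was read by 2 probe sets (Gsta3 and Gsta4), mu by 4 (1 each for Gstm1 and Gstm2 and 2 for Gstm5), pi by 1 and theta by 2. Gsta3 and Gstt1 lie on chip B and the other 7 probe sets on chip A. All 9 identifiers carry a suffix that marks probes shared with similar sequences, so the signal of a near-identical relative, such as Gstp2 beside Gstp1, is part of the value.

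RNA of liver and hippocampus came from male Rj:NMRI mice, an outbred strain, fed a purified diet for 57 or 58 days and killed without a complete fast. The control diet held neither test oil, the fungal oil diet held 1.1% of an arachidonate-rich fungal oil, the fish oil diet held 1.9% of fish oil, and the diet called both oils held the 2 together; all diets shared a fat-free base with milk fat, palm olein, sunflower, soybean and medium chain oils. Of the 17 arrays, liver accounts for 10 (control in duplicate, each oil diet once) and hippocampus for 7 (each diet once), where both oils together were read on chip B alone. Each diet was fed to 10 mice, of which 5 were selected; how many mice stand behind each RNA, and whether the liver controls are separate mice, is not given in the sources used here, so the spread of the controls may be technical.

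Glutathione S-transferases join the tripeptide glutathione to reactive or oily compounds and make them easier to excrete. The liver is rich in the alpha, mu and, in the mouse, pi classes, while alpha class Gsta4 is known for its activity on 4-hydroxynonenal, an aldehyde released when polyunsaturated fatty acids such as arachidonate or docosahexaenoate are oxidised. Many transferase genes are known targets of Nrf2, which binds antioxidant response elements, and of the xenobiotic receptors CAR and PXR.

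The bases upstream of the transcription start are shown for the 5 genes with a RefSeq window that begins upstream of the outermost annotated start, so that the known types of element can be compared between genes of the 3 classes shown (RefSeq, build GRCm38.p6; 6 of the 8 measured genes had a window). Capitals mark matches on either strand. The antioxidant response element core, the site of Nrf2 with a small Maf protein, was searched as TGACNNNGC. The AP-1 site of Fos and Jun proteins was searched as TGANTCA. The TATA box, which places the start of transcription in some promoters, was searched as TATAAA. The GC box, a site of Sp1 and related factors, was searched as GGGCGG. The CCAAT box, a site of the factor NF-Y, was searched as those letters. The half-site of nuclear receptors such as CAR and PXR was searched as AGGTCA. No TATA box or half-site occurs in the bases shown, though both occur in a second Gstm1 window. Sequences run along the gene's strand and end at the base before the window's start, or 20 bases before it for Gsta3, where another annotated start lies upstream: Gsta3 at chr1:21240335-21240564, plus strand (230 bases), and 250 bases each of Gstm1 at chr3:108017974-108018223, minus strand, Gstm2 at chr3:107986421-107986670, minus strand, Gstm5 at chr3:107895604-107895853, plus strand and Gstp1 at chr19:4037913-4038162, minus strand.
Gsta3: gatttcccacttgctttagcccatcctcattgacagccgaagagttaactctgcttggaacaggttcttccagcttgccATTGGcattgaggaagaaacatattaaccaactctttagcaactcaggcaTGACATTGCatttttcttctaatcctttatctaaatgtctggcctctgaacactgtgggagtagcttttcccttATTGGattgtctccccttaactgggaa
Gstm1: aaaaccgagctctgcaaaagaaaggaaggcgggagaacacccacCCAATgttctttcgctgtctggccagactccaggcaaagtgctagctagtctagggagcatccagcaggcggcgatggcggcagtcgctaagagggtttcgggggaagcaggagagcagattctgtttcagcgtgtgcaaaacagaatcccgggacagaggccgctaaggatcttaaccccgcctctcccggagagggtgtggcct
Gstm2: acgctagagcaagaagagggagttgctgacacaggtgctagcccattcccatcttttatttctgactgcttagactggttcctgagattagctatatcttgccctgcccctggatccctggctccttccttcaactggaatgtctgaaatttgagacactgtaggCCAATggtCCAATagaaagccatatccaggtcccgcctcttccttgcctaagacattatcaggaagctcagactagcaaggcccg
Gstm5: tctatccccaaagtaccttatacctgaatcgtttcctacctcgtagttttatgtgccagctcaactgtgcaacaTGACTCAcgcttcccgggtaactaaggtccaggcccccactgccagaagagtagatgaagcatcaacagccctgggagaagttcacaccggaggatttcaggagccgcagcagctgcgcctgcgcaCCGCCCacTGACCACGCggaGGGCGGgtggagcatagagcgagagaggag
Gstp1: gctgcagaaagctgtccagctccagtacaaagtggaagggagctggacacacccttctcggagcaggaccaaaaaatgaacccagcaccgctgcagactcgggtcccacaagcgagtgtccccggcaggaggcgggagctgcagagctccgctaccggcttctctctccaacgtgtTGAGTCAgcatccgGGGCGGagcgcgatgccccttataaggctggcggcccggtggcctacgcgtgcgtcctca

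In the Gsta3 window the antioxidant response element core began 121 bases before the window's start, and 2 CCAAT boxes began 171 and 47 bases before it. Gstm5 held a core 42 bases before the start between 2 GC boxes (50 and 30 bases before it), and an AP-1 site at 176. Gstp1 held an AP-1 site at 74 and a GC box at 60 and no core by these letters. The mu genes Gstm2 (CCAAT boxes at 85 and 77) and Gstm1 (a CCAAT box at 206) held neither a core nor an AP-1 site in the bases shown. A second annotated start of Gstm1 lies downstream, and its window held a TATA box beginning 30 bases before that start, CCAAT boxes at 97 and 91 and a half-site at 5. Among 32851 mouse windows of 300 bases, 12.4% held the core, 7.81% the AP-1 letters, 13.6% the TATA letters, 35.7% the GC box, 37.4% the CCAAT box and 16.3% the half-site. No match shown overlaps another, and a match describes letters, not binding.

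Intensities are the deposited whole numbers on arrays that share a trimmed mean near 150; they were raised to a floor of 0.1 times that mean (14.6 to 14.9) before log2 was taken. Negative values made up 15.2% to 34.5% of an array. Liver RNAs carried hepatocyte markers (7 of 10 measured, summed intensity 55530 to 71620, against 520 to 906 in hippocampus). They also carried Kupffer cell and macrophage markers (10 of 10 measured, 1244 to 1956, against 1892 to 1906 in hippocampus). So RNA of liver cells other than the labelled hepatocytes was present, though this sum does not tell Kupffer cells from other macrophages. Neuron markers (6 of 9 measured) summed to 5939 to 6058 in hippocampus and 63 to 126 in liver. A ratio of 3-prime to 5-prime Gapdh probes, which tends to rise as RNA breaks, was 1.89 to 3.26 in liver and 0.84 to 0.947 in hippocampus.

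The clearest contrast among the transferases was between the tissues. Of the 9 probe sets, 6 were higher in liver (alpha Gsta3, mu Gstm1 and Gstm2, pi Gstp1, theta Gstt1 and Gstt2), 2 were higher in hippocampus (both of mu Gstm5), and alpha Gsta4 differed by less than the call required. The fit held tissue and diet as terms and was run over 7889 probe sets with limma, with calls at a Benjamini-Hochberg adjusted p under 0.05 and at least 2-fold. Across all of these, 20.2% were called higher in liver and 31.7% higher in hippocampus, and the median log2 difference was -0.27. A probe set entered this fit where it was bright enough in either tissue. Gsta3, Gstt1 and Gstt2 entered through liver alone, and the dimmer Gstm5 probe set (U24428_s_at) through hippocampus alone. Each of these thus entered only through the tissue where it read high.

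Gsta3, an alpha enzyme that conjugates aflatoxin epoxide in mouse liver, read 6858 and 5534 in the liver controls, 7264 with fungal oil, 7798 with fish oil and 6687 with both. In hippocampus it read 6, 19, 4 and -5 on the control, fungal oil, fish oil and both-oils arrays. Liver was high on all 5 arrays and hippocampus sat at the floor on 3 of 4, so the mean difference of 8.77 log2 units is a bound of at least 437-fold at the floor used (fitted difference 8.80, SE 0.12, adjusted p = 2.06e-08, limma). With floors of 0.25 and 0.05 times the trimmed mean the fitted difference was 7.56 and 9.57. As 3 of the 4 hippocampal values were set to the floor, the SE and p-value do not measure the spread there.

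Gstt1, a theta enzyme that acts on small halogenated compounds, read 963, 946, 840, 984 and 842 in liver, in the order control 1, control 2, fungal oil, fish oil and both oils. In hippocampus its arrays read 20, 31, 23 and 27, all just above the floor. The tissues were far apart, with a fitted difference of 5.23 (SE 0.18, adjusted p = 6.38e-07, limma).

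Gstt2, the other theta gene, read 167, 159, 232, 233 and 270 in liver and -53, -33 and -49 in hippocampus, at the floor on all 3 arrays. At the floor used, liver was at least 14.0-fold higher (adjusted p = 1.59e-05 in the limma fit). This bound moves with the floor: the fitted difference was 2.45 log2 units (5.45-fold) with a floor of 0.25 times the trimmed mean and 4.77 (27.3-fold) with 0.05 times. As every hippocampal value was set to the floor, that group has no spread of its own (SD 0.0). The p-value therefore does not measure hippocampal spread. Both theta genes were far higher in liver, as was Gsta3 of the alpha class.

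Gstp1, the pi enzyme, read 8730 and 8844 in the liver controls, 8944 with fungal oil, 12575 with fish oil and 8592 with both, and 1216, 1299 and 1193 in hippocampus. Hippocampus was well above the floor and lower on every array, by 3.01 log2 units (SE 0.13, adjusted p = 5.49e-06, limma). Its hippocampal spread was small (SD 0.06 log2 units, n = 3 RNAs, each of a different diet and so not replicates).

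The mu class split. Gstm1, an abundant hepatic mu enzyme, read 5385, 5579, 5530, 6809 and 5433 in liver and 1528, 1573 and 1508 in hippocampus. Gstm2 read 607, 700, 489, 613 and 385 in liver and 148, 106 and 95 in hippocampus. Both were higher in liver on every array, Gstm1 by 1.95 (SE 0.09, adjusted p = 8.56e-06) and Gstm2 by 2.34 (SE 0.14, adjusted p = 2.52e-05) in the limma fit.

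Gstm5, another mu gene, went the other way at both of its probe sets. The first (AA241764_s_at) read 181, 227, 147, 215 and 129 in liver and 1042, 884 and 810 in hippocampus. The second (U24428_s_at) read 42, 36, 26, 64 and 28 in liver and 275, 338 and 252 in hippocampus. No liver array reached the lowest hippocampal one at either, and the differences were -2.28 (SE 0.16, adjusted p = 4.66e-05) and -2.82 (SE 0.33, adjusted p = 0.000484) in the limma fit.

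Gsta4, the 4-hydroxynonenal enzyme, was the 1 probe set of 9 that was not called between the tissues. It read 217 and 234 in the liver controls, 306 with fungal oil, 284 with fish oil and 309 with both, and 297, 321 and 297 in hippocampus. The ranges overlapped, and the difference was -0.19 (SE 0.11, adjusted p = 0.189 in limma), which turned to 0.14 when arrays were scaled to a common 75th percentile in place of the trimmed mean. That scaling moved the median of all probe sets from -0.27 to 0.07.

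**Figure D1:**
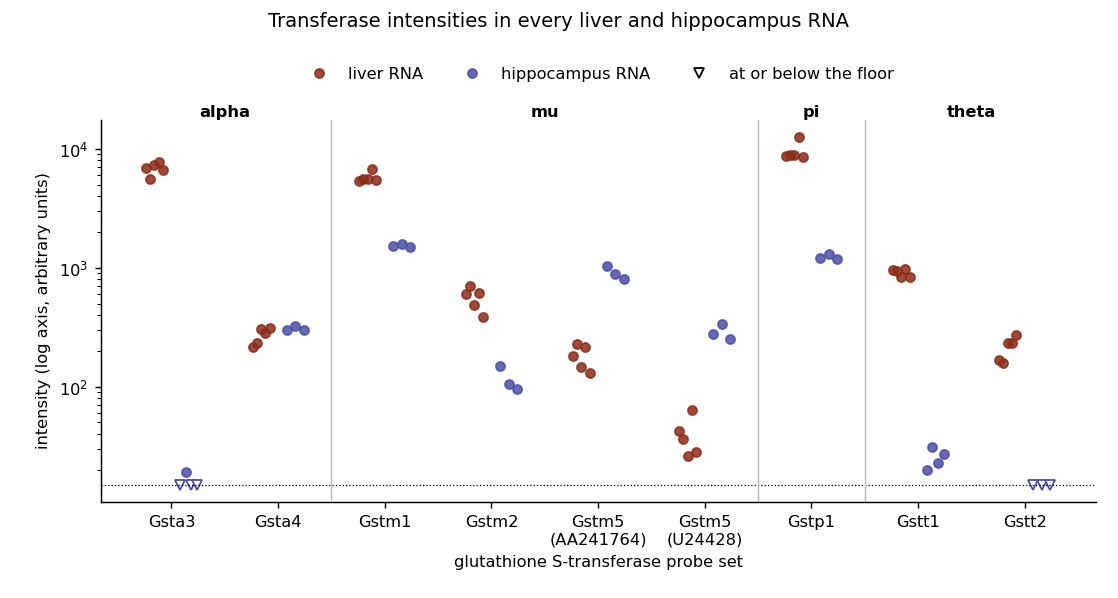
Intensity (log axis, arbitrary units) of the 9 transferase probe sets in each of 5 liver RNAs and 3 or 4 hippocampus RNAs, grouped by class; open triangles at the dotted line are values at or below the floor. Gsta3, Gstt1 and Gstt2 sit at or near the floor in hippocampus, Gstm5 is higher there at both probe sets, and Gsta4 overlaps between the tissues.

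The calls held under all 18 alternatives, including the omission of each RNA in turn, with 7 of 8 genes called where the probe sets of a gene were averaged. With quantile normalization at the low end and a common 75th percentile at the high end, the Gstm1 difference was 1.15 to 2.27 and that of Gstp1 2.25 to 3.33. Gapdh 3-prime to 5-prime ratios differed with tissue on every array measured, and their part in the differences was not tested. In bulk RNA, fewer cells of a type and less RNA per cell cannot be told apart.

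In liver, 0 of the 8 transferase probe sets tested passed the adjusted call under any oil, and the values lay on both sides of the controls with fungal oil and with both oils. With fungal oil, 4 of the 8 probe sets kept in liver lay above both control RNAs (Gsta3, Gsta4, Gstp1 and Gstt2) and 3 below both (Gstm2, Gstm5 and Gstt1). Over all 6537 probe sets kept, 32.1% lay above both and 37.3% below both. With fish oil, 6 of 8 lay above both (background 36.4%) and 0 below (background 36.9%). With both oils, 2 of 8 lay above (background 39.9%) and 4 below (background 32.4%).

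The fit used 4 diet groups, of which control alone was replicated, and left 1 residual degree of freedom. At an adjusted p under 0.05 it called 0 of 8 transferase probe sets in each comparison, where the share over all probe sets was 0.0% as well. At an unadjusted p under 0.05 it passed 2 of 8 with fungal oil (9.19% of all probe sets), 3 with fish oil (11.1%), 3 with both oils (9.93%) and 4 for the mean of the oils (11.5%). The probe set of Gstm5 with the lower signal (U24428_s_at) did not pass the filter on dim probe sets in liver and is given as values alone.

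In the alpha class, Gsta4 lay above both controls in all 3 oil RNAs (306, 284 and 309 against 217 and 234). The lowest oil RNA was 1.21-fold above the higher control. The log2 differences from the control mean were 0.44 with fungal oil (SE 0.14, adjusted p = 0.542), 0.33 with fish oil (adjusted p = 0.507) and 0.46 with both (adjusted p = 0.494) in limma. Gsta3, the other alpha gene, was above both controls with fungal oil and fish oil, at 7264 and 7798 against 6858 and 5534, and between them with both oils at 6687. Its differences of 0.24, 0.34 and 0.12 (SE 0.20) were near the 0.31 that separated its own controls. On the chip B array of fish oil, which read Gsta3, the Gapdh ratio was 3.26 against 1.99 and 2.23 in the controls. The 3-prime to 5-prime ratio of actin probes did not rise there, at 3.33 against 3.38 and 3.71. Chip A gave 1.95 for Gapdh with fish oil, between its controls of 1.91 and 2.07. The part of these ratios in the Gsta3 values was not tested.

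The theta genes parted from each other. Gstt2 was above both controls in all 3 oil RNAs, with 232, 233 and 270 against 167 and 159, and the controls differed by 0.07 log2 units in size. Its differences were 0.51 with fungal oil (SE 0.15, adjusted p = 0.542), 0.52 with fish oil (adjusted p = 0.432) and 0.73 with both oils (adjusted p = 0.428) in limma. Gstt1 read 840 and 842 with fungal oil and both oils, below controls of 963 and 946, and 984 with fish oil, above them. The Gstt1 differences were -0.18, 0.04 and -0.18 (SE 0.12), and none had an unadjusted p under 0.05.

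Gsta4 and Gstt2 were thus 2 of 8 probe sets with all 3 oil RNAs above both controls, a pattern that 12.5% of all probe sets showed, and 0 of 8 showed the reverse (11.9% of all). With 3 RNAs against 2 an exact permutation test cannot go below p = 0.1, the value it gave for each of these 2 genes (two-sided). As the 2 genes were picked for this pattern, that value adds no support. The test also treats 3 different diets as replicates. For the mean of the oils, the fitted difference was 0.41 for Gsta4 (SE 0.11, adjusted p = 0.41) and 0.58 for Gstt2 (SE 0.11, adjusted p = 0.381) in limma. Summed Kupffer cell and macrophage markers also moved with the oils, from 1956 and 1821 in the controls to 1244, 1363 and 1421, with 1 of 10 (Marco) at the floor on every liver array. Their part was not tested, and the hepatocyte list had median differences of -0.02, 0.24 and 0.03.

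In the mu class, Gstm2 had the widest range of the kept probe sets over the 5 liver RNAs, 0.86 log2 units. It read 607 and 700 in the controls, 489 with fungal oil, 613 with fish oil and 385 with both. Fish oil lay between the controls and the other diets below both, by 1.24-fold and 1.58-fold from the nearer control. Blood markers (4 of 6 measured, Cd79a at the floor on every liver array) summed to 10908 and 9390 in the controls, 9617 with fungal oil, 12249 with fish oil and 7028 with both. Stellate and connective markers (5 of 6 measured, Col1a2 at the floor) had a median of -0.23 with both oils, and the part of either list in the Gstm2 values was not tested. The Gstm2 differences were -0.41 (SE 0.14, adjusted p = 0.563), -0.09 (adjusted p = 0.825) and -0.76 (adjusted p = 0.428) in limma.

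Gstm5 at its brighter probe set (AA241764_s_at) followed the same order, with 181 and 227 in the controls, 147 with fungal oil, 215 with fish oil and 129 with both. Its differences were -0.46, 0.08 and -0.65 (SE 0.22), with an adjusted p of at least 0.515 in limma. The dim probe set read 26 and 28 with fungal oil and both oils, below controls of 42 and 36, and 64 with fish oil. So both Gstm5 probe sets were lowest in the 2 diets with fungal oil, while for fish oil the first lay between the controls and the second 1.52-fold above the higher one.

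Gstm1 did not share this order. It read 5530 with fungal oil and 5433 with both oils, between controls of 5385 and 5579, and 6809 with fish oil. The fish oil value was 1.22-fold above the higher control, a difference of 0.31 (SE 0.06, adjusted p = 0.386 in limma).

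Gstp1, which alone stands for the pi class, was highest on the same array as Gstm1. It read 8944 with fungal oil and 8592 with both oils, within 1.02-fold of the nearer of controls 8730 and 8844, and 12575 with fish oil. The fish oil difference of 0.52 (SE 0.05, adjusted p = 0.366 in limma) came with a control difference of 0.02. When the test was limited to probe sets above the 75th percentile of brightness its adjusted p was 0.0323 (limma; 0.0323 to 0.722 over 8 alternatives).

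Other bright probe sets were also higher on that array. Of 57 chip A probe sets with a control mean of at least 4000, 44 were higher with fish oil, with a median difference of 0.21, against 0.02 with fungal oil, -0.04 with both oils and 0.01 between the controls. Gstp1 ranked 6 and Gstm1 20 of the 57 by size of the difference, beside Apoe (0.59), a lipoprotein component, Cyp2e1 (0.51), a pericentral cytochrome, and Fabp1 (0.41), a fatty acid carrier. The brightest value on the fish oil chip A array was 13101, against 8905 to 9811 on the other liver arrays of that chip. After quantile normalization the fish oil difference was 0.10 for Gstp1 and 0.07 for Gstm1. Gstp1 was the probe set in place 6 and 5 by brightness in the controls and in place 3 with each oil, of 6529 on the chip.

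**Figure D2:**
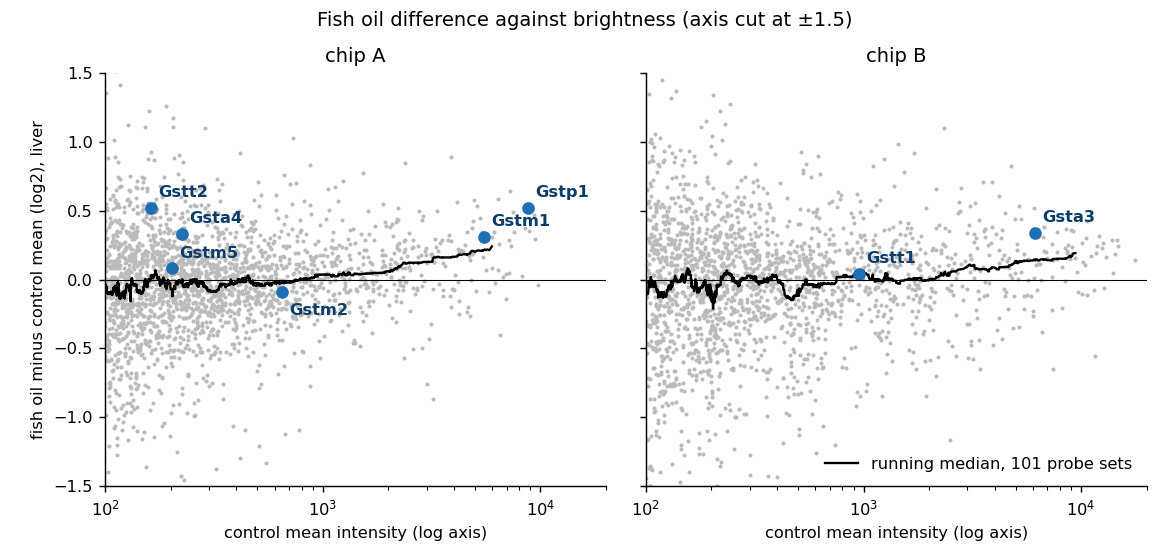
Fish oil minus control mean (log2) in liver against the control mean intensity (log axis) for probe sets kept on chip A and chip B (grey), with a running median (line) and the transferases (blue). The median lies near 0 for dim probe sets and climbs for bright ones; Gstp1 (0.52) and Gstm1 (0.31) lie above it at the bright end, Gstt2 (0.52) and Gsta4 (0.33) where it is near 0.

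**Figure D3:**
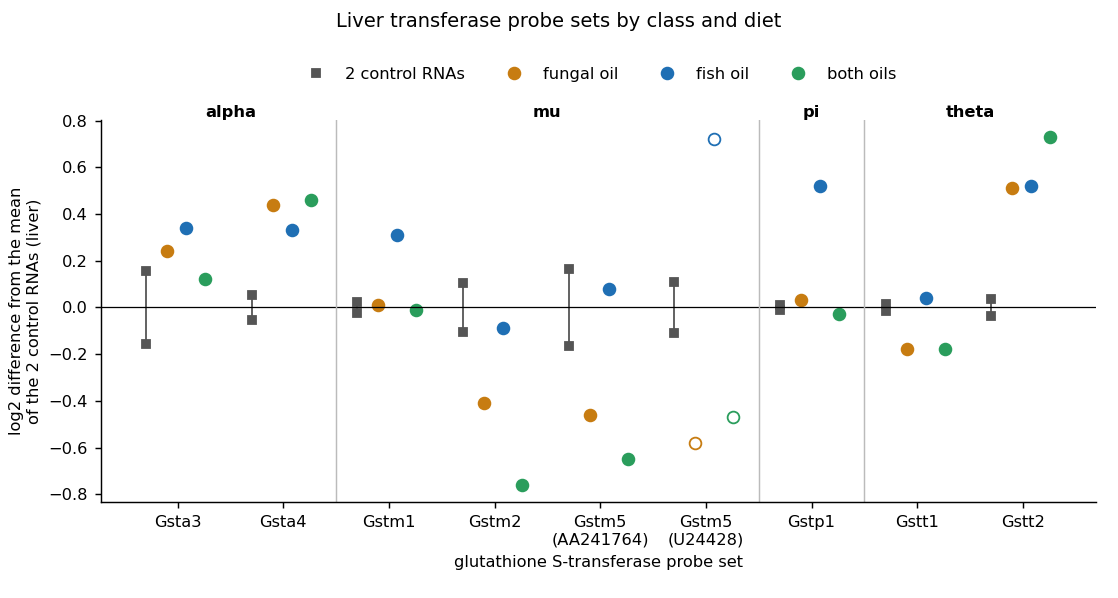
Log2 difference of each oil RNA (circles) from the mean of the 2 control RNAs (squares, joined) in liver, by class; open circles mark the Gstm5 probe set below the filter. Gsta4 and Gstt2 lie above both controls in every oil RNA, Gstm2 and Gstm5 lie below them with fungal oil and both oils, and Gstm1 and Gstp1 stand out with fish oil alone.

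By class, the median difference with fungal oil was 0.34 for alpha (2 probe sets), -0.41 for mu (3), 0.03 for pi (1) and 0.16 for theta (2), beside -0.01 for all probe sets. With fish oil the medians were 0.34, 0.08, 0.52 and 0.28, beside 0.01 for all. With both oils they were 0.29, -0.65, -0.03 and 0.27, beside 0.05 for all. Gstp1, Gstm1 and Gsta3 are among the probe sets with a control mean of at least 4000. The fish oil median of such probe sets was 0.21 on chip A and 0.15 on chip B. After quantile normalization the fish oil difference of Gstp1, the only pi gene, was smaller, as given above. The comparisons share their controls, and with 1 to 3 probe sets a class its median is that of a few genes: theta holds Gstt2 above and Gstt1 near the controls, and mu holds Gstm1 apart from Gstm2 and Gstm5. Without control 1 the mu median with fish oil was -0.08 and without control 2 it was 0.25.

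The single oils were also set against each other. Fish oil exceeded fungal oil for 7 of 8 transferase probe sets, and 2 of 8 had an unadjusted p under 0.05, beside 9.06% of all probe sets: Gstp1 at 0.49 (SE 0.06, adjusted p = 0.521) and Gstm1 at 0.30 (SE 0.07, adjusted p = 0.521) in limma. Over all probe sets, 3425 of 6537 were higher with fish oil. After quantile normalization the difference was 0.00 for Gstp1 and 0.13 for Gstm1, and Gsta3 and Gstt2 turned to -0.01 each. Gstm2 and Gstm5 were higher with fish oil by 0.33 (SE 0.17) and 0.55 (SE 0.25), and Gstt2 differed by 0.01 (SE 0.17). The adjusted call was reached by 0 of 8 and by 0.0% of all.

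The both-oils diet gave lower values than the sum of the single oils for all 8 kept probe sets, with a median of -0.31 beside 0.06 for all probe sets. The term was -0.58 for Gstp1 (SE 0.08, adjusted p = 0.527) and -0.34 for Gstm1 (SE 0.10, adjusted p = 0.527) in limma, the 2 of 8 with an unadjusted p under 0.05 (9.32% of all). After quantile normalization these terms were -0.10 and -0.08. Over all probe sets, 3002 of 6537 had a term below 0. For the alpha genes Gsta3 and Gsta4 it was -0.46 (SE 0.30) and -0.32 (SE 0.22), and at an adjusted p under 0.05 the count was 0 of 8 (0.0% of all). Each of these 8 terms rests on the same 5 RNAs, with 1 RNA for each oil diet.

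In hippocampus, where each diet is 1 RNA and no test is possible, 6 of the 9 transferase probe sets were above the filter. With fungal oil 0 of 6 moved 1.5-fold or more from the control array (14.2% of all probe sets did), and with fish oil 1 of 6 (15.0% of all). That 1 was Gstm2, which read 148 in the control, 106 with fungal oil and 95 with fish oil, log2 ratios of -0.48 and -0.64. The SD of the ratios over all 6538 probe sets was 0.51 and 0.56.

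The other hippocampal transferases lay closer to their control. Gsta4 had ratios of 0.11 and 0.00 on the log2 scale, Gstm1 0.04 and -0.02 and Gstp1 0.10 and -0.03. Gstm5 was lower at the brighter probe set (-0.24 with fungal oil, -0.36 with fish oil) and 0.30 and -0.13 at the other. Gsta3, Gstt1 and Gstt2 were too dim there, and as no kept member lies on chip B, the both-oils RNA gave no ratio (15.9% of its 3273 kept probe sets passed 1.5-fold). Choroid plexus and meninges markers (4 of 5 measured) summed to 1122 in the control, 4183 with fungal oil and 2377 with fish oil, and their part in these ratios was not tested.

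Gstp1 and Gstm1, which read high in the liver with fish oil, had hippocampal fish oil ratios of -0.03 and -0.02. Gsta4, above both controls in every liver oil RNA, had a hippocampal range of 297 to 321. Under fungal oil Gstm2 read below its controls in both tissues, 489 against 607 and 700 in liver and 106 against 148 in hippocampus. Gstm5 at AA241764_s_at did so too, with 147 against 181 and 227 in liver and 884 against 1042 in hippocampus. The other Gstm5 probe set (U24428_s_at) did not, with 26 against 42 and 36 in liver but 338 against 275 in hippocampus. The hippocampal log2 ratios of Gstm2 (-0.48) and AA241764_s_at (-0.24) lay within the SD of 0.51 over all probe sets. The difference between tissues in the effect of a diet was not tested.

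Over the 5 liver RNAs, the named chip A genes with log2 values nearest to those of Gstm2, by Euclidean distance from the control mean, were Atf4, Ppox and Smarce1. Atf4, a stress-responsive transcription factor, read 1115 and 1129 in the controls, 910 with fungal oil, 1045 with fish oil and 647 with both (distance 0.178). Ppox, an enzyme of haem synthesis, lay at 0.193 and Smarce1, a chromatin remodelling subunit, at 0.195, against a median distance of 1.04 over 2892 probe sets. As all 3 were picked for this likeness, that they share the order of Gstm2 (lowest with both oils, next with fungal oil) follows from the selection. Ppox and Smarce1 are dim (41 to 96 over all 5 RNAs).

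Other genes of glutathione synthesis, use and transport were listed as a group of 54, of which 21 had a probe set and 17 were kept in liver. Above both controls were 8 of 17 with fungal oil, 14 with fish oil and 12 with both oils, and below both were 5, 2 and 2, where all probe sets gave 32.1%, 36.4% and 39.9% above and 37.3%, 36.9% and 32.4% below. The list's medians were 0.04, 0.29 and 0.11, and 0 of 17 passed the adjusted call in any diet. At an unadjusted p under 0.05, 1, 2 and 2 genes were higher and 0 lower, where 9.19%, 11.1% and 9.93% of all probe sets passed in either direction. The list was chosen with earlier results of these data known, so a share above that of all probe sets is not independent support.

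Abcc3, an export pump for glucuronide and other conjugates, was the listed glutathione gene at least 1.5-fold outside the controls. It read 490 and 518 in the controls, 592 with fungal oil, 823 with fish oil and 924 with both. The differences were 0.71 with fish oil (SE 0.11, adjusted p = 0.371) and 0.88 with both oils (SE 0.11, adjusted p = 0.38) in limma. All 3 oil RNAs were above both controls, lowest with fungal oil.

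The regulators of the transferase genes and their usual targets were listed as 41 genes, 29 with a probe set and 22 kept in liver. Above both controls were 16 of 22 with fungal oil, 14 with fish oil and 15 with both oils, and below both were 5, 6 and 3, against the same shares of all probe sets (32.1%, 36.4% and 39.9% above, 37.3%, 36.9% and 32.4% below). The medians were 0.38, 0.51 and 0.38, 0 of 22 passed the adjusted call, and 3, 4 and 5 were higher with an unadjusted p under 0.05 (1 lower in each diet), where 9.19%, 11.1% and 9.93% of all probe sets passed. This list too was chosen with earlier results known, so its counts and medians are not independent support either.

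Among the targets, Aldh1a1, a retinal dehydrogenase, read 2225 and 2548 in the controls, 3917 with fungal oil, 4274 with fish oil and 4091 with both. Its differences were 0.72, 0.84 and 0.78 (SE 0.12), with an adjusted p of 0.501, 0.371 and 0.38 in limma. Cyp3a11, a cytochrome induced through PXR, read 4935 and 4618 in the controls and 7297, 8429 and 6542 with the oils in the same order. Its fish oil difference was 0.82 (SE 0.13, adjusted p = 0.377, limma). Both genes were above both controls in every oil RNA. They are named for the size of their differences, and other listed targets went the other way. Hmox1 differed by -0.57, -0.42 and -0.05 and Srxn1 by -0.13, -0.04 and -0.15 with fungal oil, fish oil and both. Of the 22 genes kept, 16, 14 and 15 lay above both controls and 5, 6 and 3 below.

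Dimmer genes of this list were also named by the rule, and their values stay near the floor on some arrays. Cyp2b9, a cytochrome of the CAR-responsive family, read 20 and 94 in the controls and 161, 241 and 146 with fungal oil, fish oil and both. Ahr, the dioxin receptor, read 43 and 40, then 68, 58 and 79. Aldh3a1, an aldehyde dehydrogenase, read 41 and 35, then 76, 57 and 55.

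Rxra, the partner of CAR, PXR and PPAR receptors, read -84 and 36 in the controls and 105, 75 and 42 with the oils. Mafg, a small Maf partner of Nrf2, read 68 and 70 in the controls, 52 with fungal oil, and 11 and -16 (both at the floor) with fish oil and both oils. None of these 5 dim genes passed an adjusted p under 0.05 in any diet in limma.

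Between the tissues, 9 of 18 listed glutathione genes tested were higher in liver and 2 in hippocampus, with a median of 1.07 log2 units, genes at the floor counted at their bound. Of the 22 listed regulators and targets tested, 14 were higher in liver and 0 in hippocampus, with a median of 2.48. Over all probe sets tested, 20.2% were called higher in liver and 31.7% in hippocampus, with a median of -0.27. Listed genes too entered this fit where they were bright enough in either tissue. Those at the floor in hippocampus, such as Bhmt, Mat1a, Cyp3a11 and Abcc3, entered through liver alone. The lists were also chosen with earlier results known, so their counts and medians are not independent support. Bhmt and Mat1a of methionine metabolism, Cyp3a11 and Abcc3 were at the floor on every hippocampus array, so liver was at least 489-fold, 229-fold, 424-fold and 43.8-fold higher in turn, bounds set by the floor. Cyp2c29 read 19 to 41 in hippocampus and 4996 to 7384 in liver, a fitted difference of 7.80 (SE 0.12). Ahcy, which splits S-adenosylhomocysteine, read 73 to 149 and 4139 to 5267, a difference of 5.62 (SE 0.15).

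**Figure D4:**
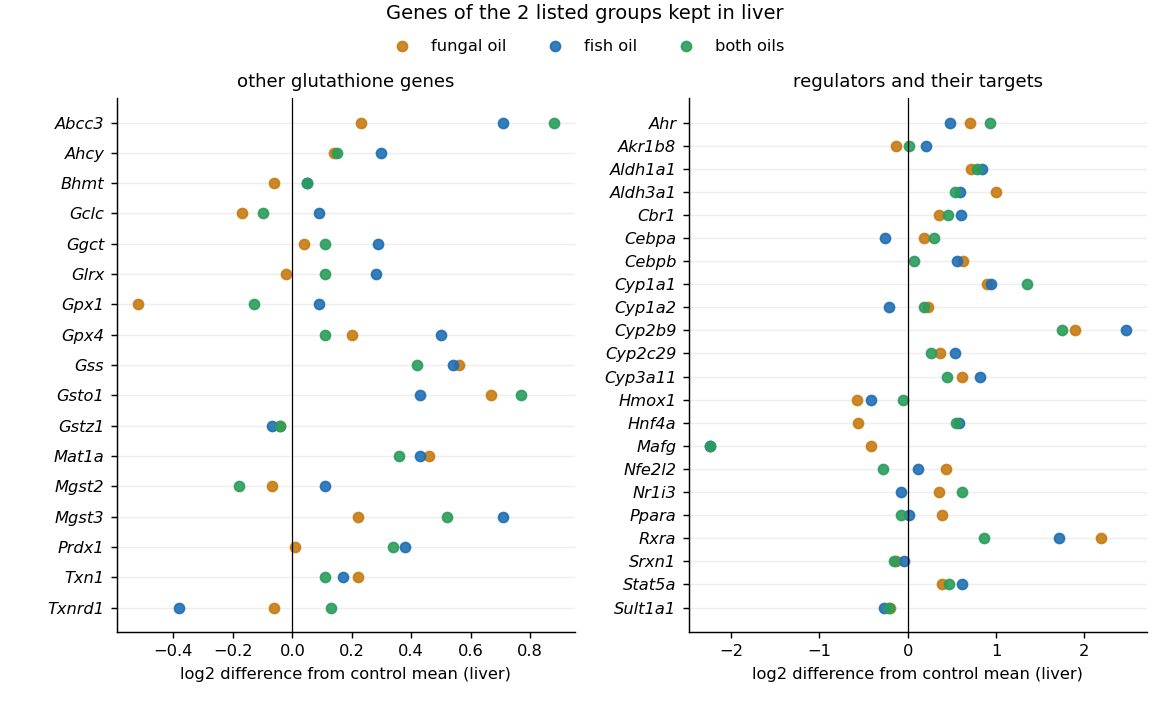
Log2 difference from the control mean in liver with fungal oil, fish oil and both oils for the 17 other glutathione genes (left) and the 22 regulators and targets (right) kept in liver; each circle is 1 RNA against the mean of 2 controls, and the axes differ. Abcc3, Aldh1a1 and Cyp3a11 lie above 0 in all 3 oil RNAs, as do others of both lists, such as Mat1a, Gss and Cyp2c29. Cyp2b9, Rxra and Mafg, which are dim, spread the widest.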

How the data were processed

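Liver and hippocampus RNA was hybridised to 2 Affymetrix array types, chip A (6529 probe sets without controls) and chip B (6540). The deposited value of a probe set on an array is an intensity, rounded to a whole number and in part negative. How background and scale were set is not given in the labels read here. Each array had a mean of 146.1 to 149.4 after trimming 2% at each end, so values were used as deposited within a tissue and scaled to a trimmed mean of 150 between tissues. A fold against a value at the floor is written as at least.

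Probe sets were named by the platform annotation where it gives 1 symbol (7542 of 13069). A probe set was tested in liver where its mean intensity reached the chip's median, which kept 8 of the 9 transferase probe sets; the tissue fit took probe sets above the median of either tissue. Log2 values were fitted with limma (3.58.1, R 4.3.3), lmFit and eBayes with an intensity trend, chip by chip, with 1 Benjamini-Hochberg adjustment over the 2 chips. Prior degrees of freedom were 2.2 and 2.09 in liver. Diet was a term of the tissue fit, since the tissues are paired by diet. A gene with several probe sets was represented by the brightest in the lists.

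Named from the 2 lists were up to 6 genes per diet with the largest difference among those at least 1.5-fold outside both controls, and the 6 with the largest tissue difference. The members and lists were chosen with earlier results of these data known. Alternatives changed the normalization, the floor, the filter, the trend, the handling of several probe sets, the controls used and the diet terms. Signal over background and the number of arrays limit the precision.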

Additional observations from a re-analysis of the deposited data

Results flagged for a closer look

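In 10 sets of 4 or 5 values of 1 transferase probe set in 1 tissue, 2 held a value far from the rest, where about 1 in 20 would by chance. The rule treats the values of a set as replicates, though they come from different diets. For Gstp1 in liver, the fish oil RNA read 12575 and the other 4 RNAs 8592 to 8944. On the log2 scale, the gap to the nearest other value made up 0.895 of the whole range. For Gstm1 in liver the gap made up 0.849 on the same scale, with 6809 in the fish oil RNA and 5385 to 5579 in the others. The limit for 5 values is 0.71. Both are on the same chip A array, and that RNA is the only liver RNA of its diet.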

How the results depend on the processing

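Of 412 alternative values with a test for single transferase probe sets, 402 kept their direction and side of the threshold, 1 passed it and 9 turned in sign. Of 64 values without a test, which leave out a control, 59 kept their direction and 5 turned. These counts cover each oil diet and the mean of the oils against control in liver, and the tissue comparison. Fish oil against fungal oil and the interaction are not counted here, and values of theirs that turned are given above. With fungal oil, Gstm1 turned to -0.06 (quantile normalization), -0.01 (without control 1) and -0.13 (additive fit of the oils), and Gstp1 to -0.22 (additive). With fish oil, Gstm5 (AA241764_s_at) turned to -0.08 (without control 1) and -0.03 (additive), and Gstm2 to 0.01 (without control 2; -0.19 without control 1). With both oils, Gstp1 turned to 0.10 (quantile) and 0.05 (additive), Gstm1 to 0.01 (without control 2) and 0.04 (additive), and Gsta3 to -0.04 (without control 2). For the mean of the oils Gstm1 was -0.02 under quantile normalization, and Gsta4 turned to 0.14 between tissues at a common 75th percentile. Quantile normalization gave the pi class 0.10 in each diet. The additive fit, which lets each oil's estimate draw on the both-oils RNA, gave alpha 0.17 with either single oil, pi -0.22, 0.27 and 0.05 with fungal, fish and both oils, and theta 0.09 and 0.21 with fungal and fish oil. Leaving out a control gave mu -0.08 to 0.25 with fish oil and -0.82 to -0.49 with both. Over all probe sets, against 0 called, no filter gave 299, 375, 301, 877, 599 and 812 calls (fungal, fish, both, mean of oils, fish against fungal, interaction), of which 280, 357, 286, 819, 575 and 776 had both controls at the floor. The bright subset gave 26, 39, 37, 56, 7 and 1 in that order, 1 of them a transferase (Gstp1, fish oil). The additive fit gave 5 (fungal), 16 (both) and 16 (mean of oils), and averaging a gene's probe sets 1 (both). Tissue calls were 4090, 2558 in the bright subset and 2314 over genes, which test fewer features. In hippocampus, transferases past 1.5-fold became 1 with fungal oil without the filter, and 0 with fish oil in the bright subset or against the other arrays. Leaving out a control leaves no residual degree of freedom, so those are values without a test.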
